A study of Mus musculus with 21 samples.

Results

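The RNA of single mouse CD8 T cells was compared after 3 days of culture with IL-15 or with IL-2, each at 50 IU/mL. All cells of both libraries were used: 4399 cells with IL-15 and 3471 with IL-2, together 7870 of the 106458 cells in the 21 libraries of the series. All were OT1 cells, which carry a transgenic receptor for an ovalbumin peptide. Both cultures began as naive cells and were activated on day 0 with beads coated with anti-CD3 and anti-CD28, so bead activation is shared and only the added cytokine differs by label. Each condition of the series had 1 library, and no label says how many animals or cultures a library came from. The differences therefore have no replicate check, no p-value was computed, and every interval given in brackets is an exact 95% interval that covers counting error only. For comparison, the text uses the naive library of day 0, the day 3 library activated without cytokine, the day 3 libraries with IL-15 or IL-2 at 5 IU/mL or IL-2v at 50 IU/mL (IL-2v is an IL-2 variant that the labels call a mutant), and the IL-15 and IL-2 libraries at 50 IU/mL from days 5 and 10.

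The labels carry 2 conflicts that touch this pair. The treatment label of the library titled as IL-2 names interleukin-3 and that of the library titled as IL-15 names interleukin-16. The titles and the design text name IL-2 and IL-15, and these were followed. The extraction label describes a sort of CD44+ CD45.1+ CD8 cells out of tumours. The growth label describes culture, and the cells are treated here as cultured.

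T cells read IL-2 and IL-15 through a shared pair of chains, IL-2Rβ (Il2rb) and the common γ chain (Il2rg). IL-2 is bound with high affinity when the IL-2Rα chain (CD25, Il2ra) is also present, whereas IL-15 is usually presented by IL-15Rα. Both cytokines signal through the kinases JAK1 and JAK3 to STAT5. In CD8 T cells, IL-2 is known for driving effector growth, and IL-15 for sustaining memory cells.

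Depth was similar in the pair. The IL-15 library held 21200905 UMIs (unique molecular identifiers, each marking 1 captured RNA molecule) and the IL-2 library 16507682, with medians of 4317 and 4436 UMIs per cell. Mitochondrial transcripts took 4.48% of UMIs with IL-15 and 3.37% with IL-2, and ribosomal protein transcripts took 32.0% and 30.9%. The libraries shared 4 barcode sequences, 0.115% of the smaller library. After each cell was thinned at random to 2000 UMIs, which left 4230 and 3347 cells, Cd3d had a UMI in 89.5% and 79.0% of cells and Cd8b1 in 72.2% and 41.8%. The 12 markers of CD8 T cells summed to 8332 CPM (UMIs of a gene scaled to a library total of 1000000) with IL-15 and 5132 with IL-2. Markers of other cells were low: Cd4 had a UMI in 0.165% and 0.299% of cells, and Lyz2 and Ms4a1 in 0 cells of either library, where a floor of 3 counts allows a share of cells with a UMI of up to 0.0709% with IL-15 and 0.0896% with IL-2. In the B cell list Ms4a1 and Pax5 were at 0 in both libraries, but its sum was 711 CPM with IL-15 and 313 with IL-2, of which Ighm gave 680 and 303. The myeloid list summed to 125 and 110 CPM with Lyz2, Csf1r, Cd14, Adgre1 and C1qa at 0, and most of each sum was Cst3. The NK list summed to 18.9 and 16.0 CPM with Ncr1, Klra8 and Khdc1a at 0. The erythroid list summed to 0.189 and 3.15 CPM. The CD4 and regulatory T cell list summed to 15.9 CPM with IL-15 and 27.3 with IL-2.

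With IL-15, the activated cells held less RNA for IL-2 receptor α, for TNF receptor family members, for glycolysis and the response to low oxygen, for amino acid supply and for heat shock proteins. They held more RNA for genes of naive and memory T cells and for interferon-stimulated genes. A gene was counted where it reached 20 CPM in either library, and the difference was taken as log2(CPM + 1) with IL-15 minus that with IL-2, which makes the change of low genes look smaller. Of 6072 genes that passed this filter, 136 (2.24%) were at least 2-fold higher with IL-15 and 220 (3.62%) at least 2-fold lower, 356 (5.86%) in all. At least 4-fold differences were fewer, 18 higher and 48 lower. The median over all genes was −0.07, and 83.4% of the genes lay within 1.5-fold. When only cells with at most 5% mitochondrial UMIs were kept, which left out 1519 cells with IL-15 and 619 with IL-2, 133 genes were higher and 244 lower, with 124 and 214 shared with the whole libraries. UMIs were summed over a library's cells, so fewer cells with a transcript and less transcript per cell cannot be told apart in CPM. Just inside the limit were Slc39a10 at −1.0 and Atg2b at −1.01, and just outside it, before rounding, were Shmt2 and Pck2 at −1.0.

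**Figure D1:**
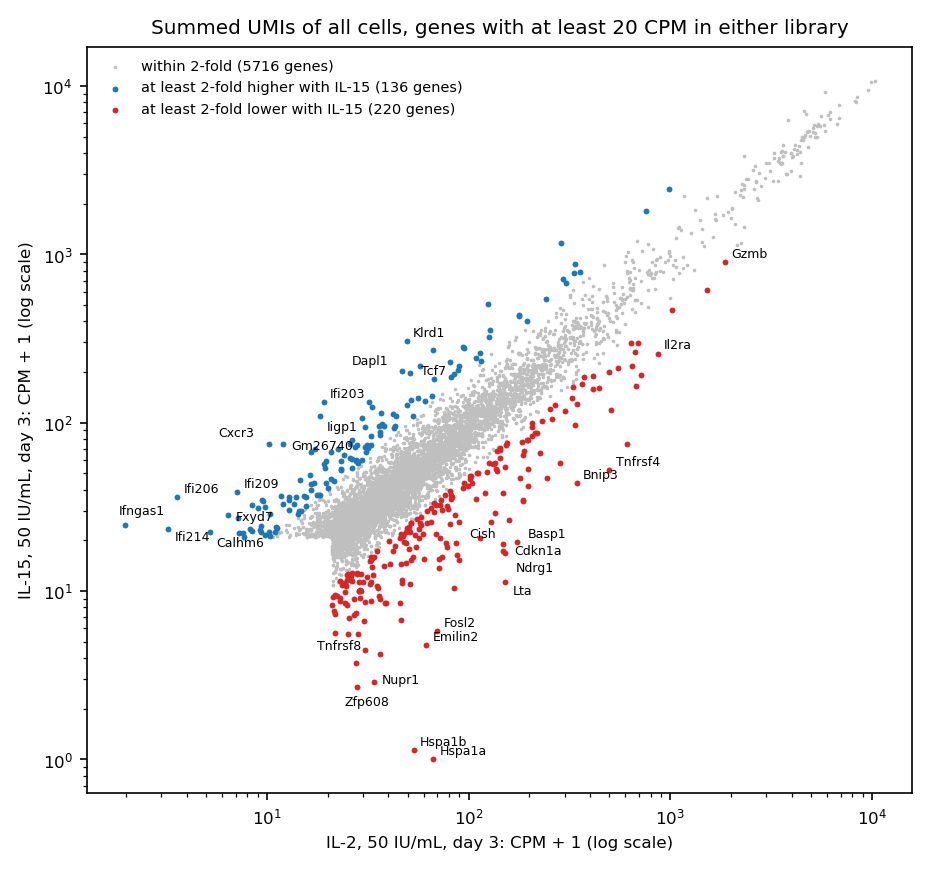
CPM + 1 of each gene with IL-2 (x axis, log scale) and with IL-15 (y axis, log scale), both at 50 IU/mL on day 3. Each point is 1 of the 6072 genes, with 136 blue points at least 2-fold higher and 220 red points at least 2-fold lower with IL-15. Most points lie on the diagonal, and the red points reach further from it than the blue ones, with Hspa1a and Hspa1b farthest.

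The receptor chains and their kinases differed in only a few members. Il2ra, the chain that gives IL-2 its high affinity, stood at 257 CPM with IL-15 (251 to 264) and at 869 CPM with IL-2 (854 to 883), a difference of −1.75. Without cytokine it stood at 149 CPM, with IL-2v at 594 CPM and in naive cells at 5.63 CPM, so the IL-2 culture was the highest of these. An Il2ra UMI was seen in 34.9% of thinned cells with IL-15 and in 75.3% with IL-2. The shared signalling chain Il2rb lay close in both, at 391 CPM with IL-15 and 438 with IL-2. Il2rg, the common γ chain, stood at 197 and 135 CPM, a value that is uncertain because 31.3% of its 3′ end is shared with Gm20489. Of the 12 genes on the list of receptors and signalling, 11 passed the filter, with 1 higher, 1 lower (Il2ra) and a median of −0.36. Stat5a differed by −0.07, and its paralogue Stat5b stood at 40.8 CPM with IL-15 and 63.5 with IL-2 (−0.63). Jak1 stood at 251 and 183 CPM.

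Several transcripts of STAT5 target and feedback genes were lower with IL-15. Of 22 genes on that list 18 passed the filter, 7 were at least 2-fold lower, 0 were higher, 11 lay within 2-fold, and the median was −0.72 against −0.07 over all genes. The list summed to 2370 CPM with IL-15, 4272 CPM with IL-2 and 1422 CPM without cytokine, so the IL-15 culture lay between the other two. Cish, a STAT5-induced inhibitor of cytokine receptor signalling, stood at 18.0 CPM with IL-15 (16.3 to 19.9) and 147 CPM with IL-2 (141 to 153), a difference of −2.96. Its level was 8.27 CPM without cytokine, 14.0 CPM with IL-2 at 5 IU/mL and 73.7 CPM with IL-2v, and 3.05% of thinned cells with IL-15 and 24.4% with IL-2 held a Cish UMI. Lta, the cytokine lymphotoxin α, stood at 10.3 and 150 CPM (−3.74). Cdkn1a, the cell cycle inhibitor p21, stood at 16.4 and 148 CPM (−3.10). Other members lay nearer each other: the kinase Pim1 at 336 and 485 CPM (−0.53), the survival gene Bcl2 at 345 and 557 CPM (−0.69) and Socs2, a feedback inhibitor, at 67.5 and 133 CPM (−0.97). For Bcl2 and Pim1 the IL-15 culture was above the one without cytokine, which held 84.0 and 192 CPM.

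The Cish promoter is shown because it carries the kind of site that STAT5 is known to bind, TTCNNNGAA, which reads the same on both strands. The stretch is from RefSeq (GRCm38.p6), chr9:107296579-107296688, plus strand, 5′ to 3′, with the matches in capitals. Both matches lie at or just after the annotated start of the gene.
Cish: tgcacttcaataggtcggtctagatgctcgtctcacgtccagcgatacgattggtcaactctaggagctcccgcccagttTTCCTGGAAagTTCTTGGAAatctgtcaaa
A window of 250 bases before and 50 after an annotated start was at hand for 4885 of the 6072 genes, some with more than 1 start. A gene was counted where any of its windows held the letters, so genes with more starts had more chances. TTCNNNGAA was found in 8.45% of these genes, in 8.98% of those lower with IL-15 and in 11.3% of those higher, so neither set stood far from the background. On the STAT5 list, 2 of the 14 genes with a window held it, beside 4 of 20 on the ATF4 list and 5 of 13 on the interferon list.

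TNF receptor family members, the costimulatory receptors of activated T cells, had the lowest median of the lists apart from those of cell type markers. Of 12 genes 7 passed the filter, with 4 lower, 1 higher and a median of −2.02, and the list summed to 641 CPM with IL-15 and 1881 with IL-2. Tnfrsf4 (OX40) stood at 51.4 CPM with IL-15 (48.4 to 54.5) and 499 CPM with IL-2 (489 to 510), a difference of −3.26. In the other day 3 libraries it stood at 40.4 CPM without cytokine, 41.6 CPM with IL-15 at 5 IU/mL, 84.3 CPM with IL-2 at 5 IU/mL and 114 CPM with IL-2v, and in naive cells at 8.93 CPM. The IL-2 culture at 50 IU/mL was the one that stood apart. A Tnfrsf4 UMI was seen in 7.94% of thinned cells with IL-15, 52.8% with IL-2 and 1.07% of naive cells. Tnfrsf9 (4-1BB) stood at 118 and 509 CPM, Tnfrsf18 (GITR) at 165 and 674 CPM and Tnfrsf8 (CD30) at 3.21 and 35.2 CPM. The member at least 2-fold higher was Cd27, a receptor of naive and memory T cells, at 230 CPM with IL-15 and 80.3 with IL-2 (1.51), and Fas, the death receptor, stood at 29.8 and 23.1 CPM (0.35). Among the cytokines themselves, 6 of 21 genes passed the filter, of which Lta and Tnf (8.96 and 27.7 CPM, −1.53) were at least 2-fold lower and none was higher.

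Transcription factors of effector cells followed the same direction in 4 members. Nfil3 stood at 15.3 CPM with IL-15 and 86.7 with IL-2 (−2.42), Bhlhe40 at 45.9 and 245 (−2.39), Batf3 at 24.9 and 128 (−2.32) and Zbtb32 at 49.1 and 111 (−1.16). These 4 were the members past 2-fold among 15 that passed the filter, and the list's median was −0.37. Prdm1 (Blimp-1), which promotes terminal effector cells, stood at 26.8 and 47.8 CPM (−0.81), and Tbx21 (T-bet) at 20.3 and 10.2 CPM (0.93), so neither reached 2-fold. Immediate early and stress genes gave 6 of 14 members lower and 0 higher, with Fosl2, an AP-1 subunit, at 4.76 CPM with IL-15 and 68.9 with IL-2 (−3.60). Gadd45g stood at 7.55 and 37.8 CPM (−2.18) and Dusp4, a phosphatase that dampens MAP kinases, at 8.40 and 35 CPM (−1.94).

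**Figure D2:**
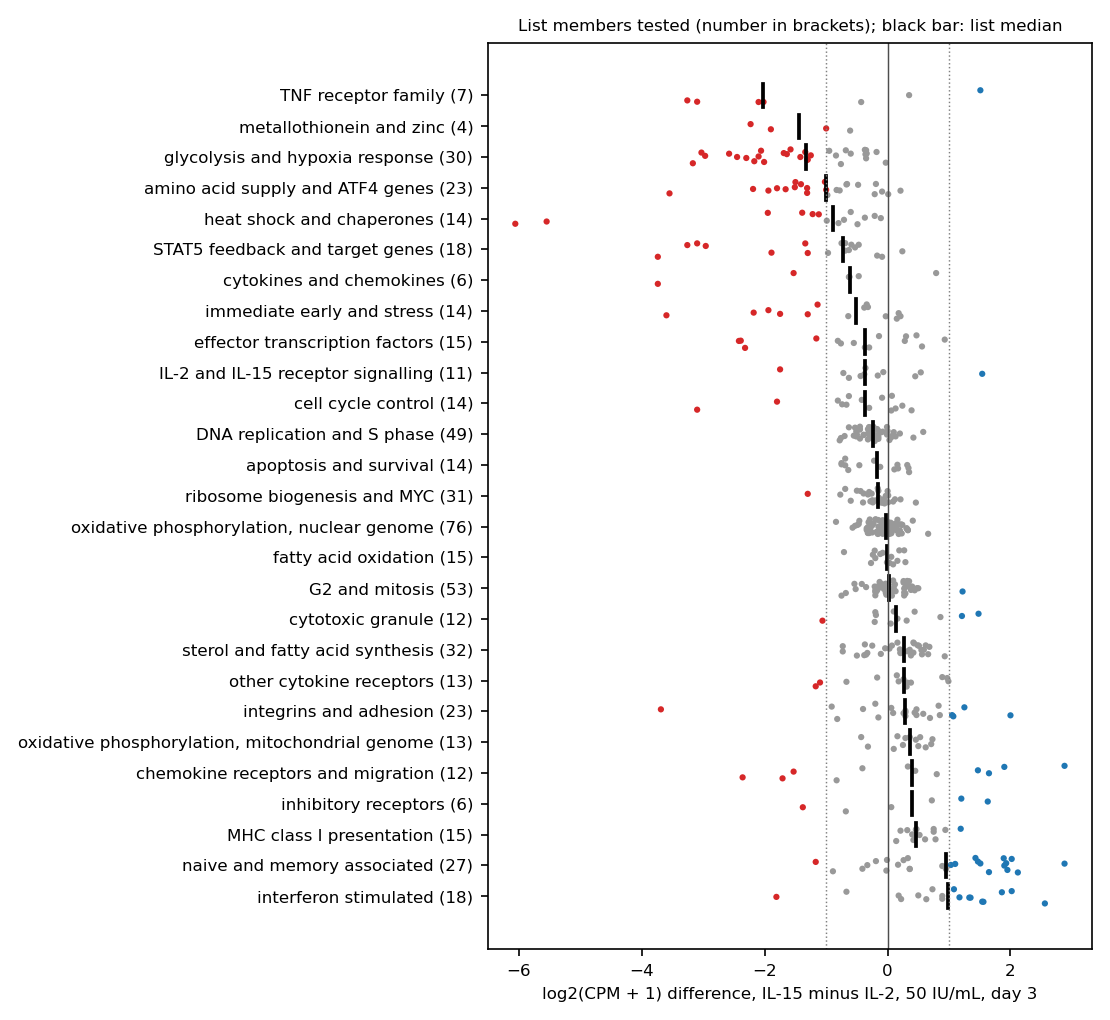
Difference in log2(CPM + 1), IL-15 minus IL-2, of each list member that passed the filter (x axis), by list (y axis, number of members in brackets). Black bars are list medians, dotted lines mark 2-fold, and red and blue points are members past it; the list of killer lectin-like receptors, with 2 members, is left out, as are lists of cell type markers. Among the lists shown, TNF receptors have the lowest median (−2.02) and interferon genes the highest (0.98), and all 30 points of the glycolysis list lie below 0.

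Glycolysis and the response to low oxygen gave the largest group of lower genes. Of 33 genes 30 passed the filter, all 30 had values below 0, 18 of them at least 2-fold lower, and the median was −1.33. The list summed to 14163 CPM with IL-15, 22869 with IL-2 and 14094 without cytokine. Ero1l, an oxidase of the endoplasmic reticulum that low oxygen induces, stood at 73.8 CPM with IL-15 (70.2 to 77.6) and 611 with IL-2 (600.0 to 623), a difference of −3.03. Bnip3, a mitochondrial protein of the same response, stood at 42.9 CPM (40.2 to 45.8) and 343 CPM (334 to 352), a difference of −2.97. Ndrg1, another gene of this response, stood at 15.9 and 151 CPM (−3.17), and Egln3, an oxygen-sensing hydroxylase, at 19.8 and 113 CPM (−2.45). Of the transporters, Slc16a3, which exports lactate, stood at 25.4 and 157 CPM (−2.58), the glucose carriers Slc2a3 at 57.0 and 284 CPM (−2.30) and Slc2a1 at 17.2 and 77.2 CPM (−2.10). The glycolytic enzymes differed less: Hk2 stood at 50.8 and 138 CPM (−1.42), Tpi1 at 616 and 1519 (−1.30) and Ldha at 1164 and 2247 (−0.95). Hif1a itself, the oxygen-regulated subunit of HIF-1, stood at 294 and 429 CPM (−0.55). Pgam1 and Eno1, 2 further enzymes of the list, share 3′ sequence with copies elsewhere and their values are uncertain.

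Several genes of this response were lower with IL-15 than without any cytokine, while others were higher. The whole list summed to 14163 CPM with IL-15 and 14094 without cytokine, so the genes given next do not stand for it. Bnip3 stood at 78.8 CPM without cytokine, Slc16a3 at 56.9, Ndrg1 at 32.7 and Ankrd37 at 25.3, where the IL-15 culture held 42.9, 25.4, 15.9 and 10.2 CPM. The cultures with IL-2 at 5 IU/mL were on the other side, with Bnip3 at 142, Slc16a3 at 89.4 and Ndrg1 at 60.8 CPM. With IL-2v at 50 IU/mL, Ndrg1 stood at 19.4 and Ankrd37 at 5.46 CPM, close to or below the IL-15 values, and Bnip3 at 118 CPM.

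The Bnip3 promoter is shown for the core of the element that HIF-1 binds, ACGTG. It is chr7:138909557-138909666, minus strand, from RefSeq (GRCm38.p6), with CACGTG in capitals, a palindrome that holds ACGTG on each strand and also the E-box that MYC-type factors bind.
Bnip3: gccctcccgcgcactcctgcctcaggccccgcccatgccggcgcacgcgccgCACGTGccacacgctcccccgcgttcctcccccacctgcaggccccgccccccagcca
ACGTG, searched on both strands, was found in 32.1% of all genes with a window, in 47.9% of those at least 2-fold lower and in 13.2% of those at least 2-fold higher. Of the glycolysis list, 20 of 27 genes with a window (74.1%) held it. A match is given as a description of the letters and not as a bound site.

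Genes of amino acid supply and of the ATF4 response, which cells switch on when amino acids are short or proteins misfold, were lower in 11 of the 23 members that passed the filter. None was higher, the median was −1.0, and the list summed to 1865 CPM with IL-15, 3251 with IL-2 and 1197 without cytokine. Asns, the enzyme that makes asparagine, stood at 37.5 CPM with IL-15 (35 to 40.2) and 147 with IL-2 (141 to 153), a difference of −1.94. It stood at 17.9 CPM without cytokine and at 132 CPM with IL-2v, so here the IL-2v culture lay near the IL-2 one. Nupr1, a stress-induced nuclear protein, stood at 1.89 and 32.8 CPM (−3.55), Trib3 at 24.9 and 89.2 CPM (−1.80) and Ddit3 (CHOP) at 37.1 and 120 CPM (−1.66). Atf4 itself stood at 185 and 374 CPM (−1.02), and Slc7a5, the large neutral amino acid carrier, at 93.7 and 186 CPM (−0.98). The Asns promoter shows the composite site of ATF4, TGATGNAA, in capitals, at chr6:7693190-7693299, minus strand, from RefSeq (GRCm38.p6).
Asns: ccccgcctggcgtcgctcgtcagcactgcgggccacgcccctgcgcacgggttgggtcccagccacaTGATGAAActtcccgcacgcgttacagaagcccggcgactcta
TGATGNAA was found on either strand in 2.60% of all genes with a window, in 5.39% of those lower with IL-15 and in 2.83% of those higher. On this list 4 of 20 such genes held it.

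Heat shock genes held the largest differences of single genes. Hspa1a, an inducible HSP70, had 0 UMIs with IL-15 and 65.8 CPM with IL-2 (62.0 to 69.9), at least 465-fold lower when 3 counts are taken as the floor of the IL-15 library. Its neighbour Hspa1b, a near twin of Hspa1a in its protein, had 3 UMIs (0.142 CPM) with IL-15 and 52.6 CPM with IL-2, a ratio of 372 (127 to 1807). Hspa1a lies at chr17:34969190-34972156 and Hspa1b at chr17:34956436-34959238, both on the minus strand of GRCm38. Their last 400 bases share no word of 50 bases, but 19.0% of the exonic bases of Hspa1a lie opposite Gm20481, from which it cannot be told apart if strand was not counted. In the other day 3 libraries Hspa1a stood between 0 and 0.193 CPM, and in naive cells at 0.217 CPM. The RNA sat in a minority of cells: 209 of 3347 thinned cells with IL-2 (6.24%, 5.45 to 7.12) and 1 of 4230 with IL-15 had a UMI of either gene, with up to 27 such UMIs in a cell. On day 5 the difference in CPM recurred, with 0.172 CPM of Hspa1a with IL-15 and 128 CPM with IL-2, and on day 10 both were low, at 0.565 and 0.183 CPM. Shares of cells with these transcripts were counted on day 3 and not on days 5 and 10. Of the 14 list members that passed the filter 6 were at least 2-fold lower and 0 higher, with a median of −0.89. The list summed to 6369 CPM with IL-15, 9540 with IL-2, 8664 with IL-2v and 6006 without cytokine. Unlike Hspa1a, the list as a whole was thus also high with IL-2v. Hsph1, a co-chaperone of HSP70, stood at 14.6 and 59.4 CPM (−1.95), and Hspa9, the HSP70 of mitochondria, at 157 and 415 CPM (−1.39). The heat shock element was searched on both strands only in an exact form: GAA, any 2 bases, TTC, any 2 bases and GAA. Shorter or imperfect forms of the element were not searched. The exact form was not found in the windows of Hspa1a or Hspa1b, which does not show that they lack the element. It was found in 4 of the 9 genes of this list with a window. The shares were 0.696% of all genes with a window, 0.599% of those lower with IL-15 and 0% of those higher. When the 288 IL-2 cells and 3 IL-15 cells with an Hspa1a or Hspa1b UMI were left out, 135 genes were higher and 208 lower, of which 132 and 204 were among those of the whole libraries.

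Metallothioneins, small proteins that bind zinc and copper, were lower as well. Mt1 stood at 190 CPM with IL-15 (184 to 196) and 714 with IL-2 (701 to 727), a difference of −1.90, and Mt2 at 41.0 and 196 CPM (−2.23). The IL-15 values lay below the culture without cytokine, with 265 and 53.5 CPM, and above that with IL-2v, with 31.1 and 7.62 CPM.

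Cytotoxic granule genes went both ways. Gzmb (granzyme B) stood at 899 CPM with IL-15 (886 to 912) and 1873 with IL-2 (1853 to 1894), a difference of −1.06, and 68.0% and 89.2% of thinned cells held a Gzmb UMI against 0.582% of naive cells. Gzma stood at 35.1 and 11.9 CPM (1.48) and Ctsw (cathepsin W) at 204 and 87.7 CPM (1.21). Of the 12 members that passed the filter 9 did not reach 2-fold, among them Nkg7, a granule membrane protein, at 575 and 316 CPM (0.86) and Srgn (serglycin) at 316 and 232 CPM (0.44).

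Genes of naive and memory T cells were the largest group higher with IL-15. Of 34 genes 27 passed the filter, with 13 at least 2-fold higher, 1 lower and a median of 0.95. The list summed to 4612 CPM with IL-15, 3162 with IL-2 and 4938 without cytokine. Tcf7 (TCF-1), a transcription factor of naive and memory T cells, stood at 197 CPM with IL-15 (191 to 203) and 50.5 with IL-2 (47.1 to 54.0), a difference of 1.95. It stood at 256 CPM without cytokine, 211 CPM with IL-15 at 5 IU/mL, 188 CPM with IL-2 at 5 IU/mL, 65.2 CPM with IL-2v and 471 CPM in naive cells. Both cultures were thus below the naive cells, and the IL-2 culture was the lowest. A Tcf7 UMI was seen in 31.2% of thinned cells with IL-15, 9.35% with IL-2 and 57.6% of naive cells. S1pr1, the receptor for exit from lymph nodes, stood at 123 and 32.2 CPM (1.90), and Klf2, its transcriptional activator, at 180 and 66.3 CPM (1.43). Dapl1 stood at 202 and 45.7 CPM (2.12), and Txnip, a brake on glucose uptake, at 217 and 56.3 CPM (1.93). Ly6c2 stood at 270 and 65.8 CPM (2.02), a value that is uncertain because 35.2% of its 3′ end is shared with another gene.

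Il7r was the exception in this list. The IL-7 receptor α chain, a marker of naive and memory cells, stood at 102 CPM with IL-15 (97.8 to 106) and 230 with IL-2 (223 to 238), a difference of −1.17. Naive cells held 446 CPM and the culture without cytokine 137. Ccr7, the homing receptor for lymph nodes, stood at 122 and 162 CPM (−0.41), Myb at 31.6 and 59.5 CPM (−0.89) and Satb1 at 431 and 541 CPM (−0.33), while Lef1, a relative of TCF-1, stood at 218 and 112 CPM (0.95).

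Chemokine receptors were split between the cultures. Cxcr3, the receptor for interferon-induced chemokines, stood at 74.2 CPM with IL-15 (70.6 to 78.0) and 9.21 with IL-2 (7.80 to 10.8), a difference of 2.88. It stood at 102 CPM without cytokine, 66.3 CPM with IL-2 at 5 IU/mL and 31.9 CPM with IL-2v. Cxcr6 stood at 44.8 and 13.6 CPM (1.65), but Ccr4 at 4.53 and 27.4 CPM (−2.36), Cxcr4 at 9.76 and 34.2 CPM (−1.71) and Ltb4r1, a receptor for leukotriene B4, at 10.4 and 31.8 CPM (−1.53). In all, 4 of the 12 members that passed the filter were higher and 3 lower. Among adhesion genes 4 of 23 were higher, with Crip1 at 1803 and 756 CPM (1.25) and Itga4 at 44.0 and 20.4 CPM (1.07), while Emilin2, a matrix protein, stood at 3.77 and 60.6 CPM (−3.69).

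Inhibitory and killer receptors also differed. Klrd1 (CD94), which pairs with NKG2 receptors, stood at 305 CPM with IL-15 (298 to 313) and 48.3 with IL-2 (45.0 to 51.8), a difference of 2.63. It stood at 357 CPM without cytokine, 136 CPM with IL-2v and 269 CPM in naive cells, so the IL-2 culture was the lowest. A Klrd1 UMI was seen in 40.9% of thinned cells with IL-15 and 9.05% with IL-2. Of the inhibitory receptors, Cd160 stood at 35.6 and 10.8 CPM (1.63) and Btla at 35 and 14.7 CPM (1.20), both higher, while Ctla4 stood at 212 and 552 CPM (−1.38) and Lag3 at 79.5 and 128 CPM (−0.68). The median of the 6 inhibitory receptors that passed the filter was 0.39, and it became −0.31 when 50 CPM were required, so the list has no single direction.

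Interferon-stimulated genes were higher with IL-15 in 9 of the 18 members that passed the filter. The list had a median of 0.98 and summed to 2226 CPM with IL-15, 1077 with IL-2 and 2329 without cytokine. Iigp1, an interferon-induced GTPase, stood at 108 CPM with IL-15 (103 to 112) and 17.4 with IL-2 (15.5 to 19.6), a difference of 2.56. Ifi27l2a stood at 504 and 124 CPM (2.02), and Gbp2, a guanylate-binding protein, at 106 and 28.5 CPM (1.86). For Gbp2 the culture without cytokine held 105 CPM, IL-2v 98.4 CPM and naive cells 42.0 CPM, so the IL-2 culture lay below the naive cells while the IL-15 culture did not. The 1 member at least 2-fold lower was Ifitm2, at 19.7 and 71.5 CPM (−1.81). MHC class I genes differed less: 1 of 15 members was past 2-fold, all 15 values were above 0 with a median of 0.47, and B2m, the invariant chain, stood at 2605 and 2259 CPM (0.21).

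Of the 12 genes with the highest differences, 4 were members of the interferon-inducible Ifi200 family, some of which sense DNA. Ifi206 stood at 35.4 CPM with IL-15 and 2.60 with IL-2 (3.33), Ifi214 at 22.4 and 2.24 (2.85), Ifi203 at 132 and 18.1 (2.79) and Ifi209 at 37.7 and 6.12 (2.44). They were also high in naive cells, as the plot of levels by library shows. Ifi209 and Ifi214 share 3′ sequence, 40.2% of that of Ifi209, so the split of counts between them is uncertain. The others among the 12 were Ifngas1, a long noncoding RNA near Ifng, at 23.6 and 0.969 CPM (3.64), the antisense RNA Gm26740 at 74.3 and 11 (2.65), Fxyd7 at 27.5 and 5.39 (2.16), Calhm6 at 21.3 and 4.24 (2.09), and Cxcr3, Klrd1, Iigp1 and Dapl1 from the lists above.

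**Figure D3:**
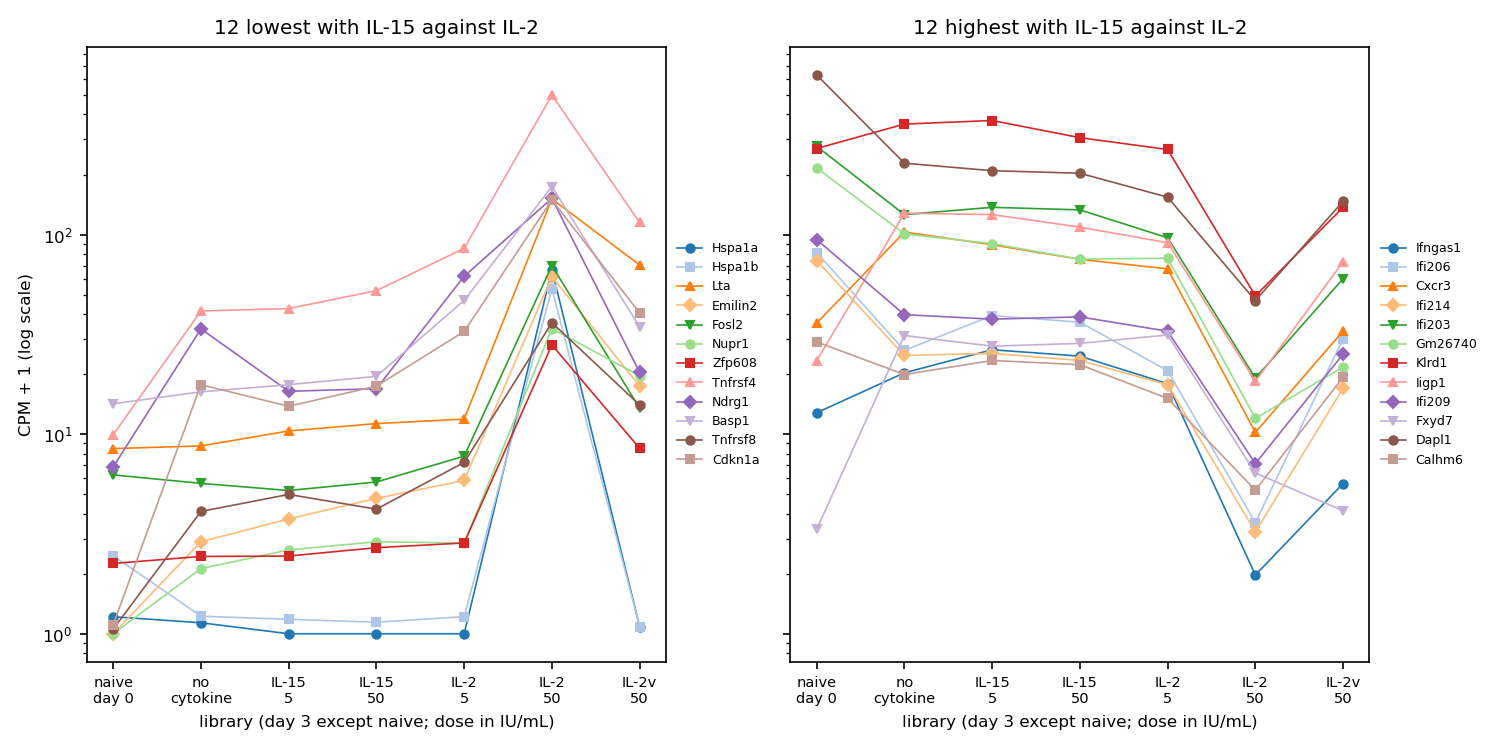
CPM + 1 (y axis, log scale) of the 12 genes lowest and the 12 highest with IL-15 against IL-2, in 7 libraries (x axis, dose in IU/mL); each point is 1 library and lines only join the points of a gene. In the left panel the IL-2 library at 50 IU/mL is the highest for all 12 genes, and in the right panel the IL-15 library lies near the one without cytokine while the IL-2 library is low.

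Promoters of 3 Ifi200 genes are printed because they share letters. The site searched, the core of the element that interferon-activated factors bind, was TTTC, any 2 bases and TTTC again, or its complement on the other strand, GAAA, any 2 bases and GAAA. The 3 stretches are on chromosome 1, minus strand, from RefSeq (GRCm38.p6): Ifi206 at chr1:173491299-173491408, Ifi214 at chr1:173535958-173536067 and Ifi203 at chr1:173942473-173942582. Capitals mark the match, which is the same 10 letters in each. Ifi203 has a second annotated start, whose window, chr1:173942623-173942922, holds no match. Ifi209, the other Ifi200 gene among the highest, is not among the genes in which the site was found. Whether a window was at hand for Ifi209 is not reported here.
Ifi206: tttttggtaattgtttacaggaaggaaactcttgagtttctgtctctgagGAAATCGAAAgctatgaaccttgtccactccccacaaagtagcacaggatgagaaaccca
Ifi214: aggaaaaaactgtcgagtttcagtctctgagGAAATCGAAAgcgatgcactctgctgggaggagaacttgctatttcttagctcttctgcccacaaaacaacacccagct
Ifi203: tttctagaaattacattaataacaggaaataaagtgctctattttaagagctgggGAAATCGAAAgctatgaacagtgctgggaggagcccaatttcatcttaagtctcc
The general site was found in 4.09% of all genes with a window, in 19.8% of those at least 2-fold higher with IL-15 and in 2.99% of those lower, and in 8 of 13 such genes of the interferon list (61.5%). GAAATCGAAA, chosen after these stretches were seen, was found in 8 of the 4885 genes, 5 of them at least 2-fold higher. Besides the 3 genes above these were Mndal, another Ifi200 gene (131 and 31.1 CPM, 2.04), and Ddx58, the RNA sensor RIG-I (31.8 and 11 CPM, 1.45). The Ifi200 genes lie side by side and are copies of one another, so their matches are not independent. Among the higher genes with the general site, Trim5, Trim12a, Trim30a and Trim34a also lie close together, on chromosome 7. The windows of Trim5 and Trim12a hold the same stretch around the match, so the share of 19.8% counts related sequence more than once.

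The share of cells in cycle was lower with IL-15. A cell was counted as cycling where it held a UMI of Mki67 or Top2a after thinning, which was so in 48.9% of cells with IL-15 (47.4 to 50.4) and 63.5% with IL-2 (61.9 to 65.2). The shares were 51.5% without cytokine, 78.3% with IL-2v and 2.04% in naive cells, whose median depth of 3799 UMIs was lower. In contrast, summed transcripts of G2 and mitosis differed little, 5359 CPM with IL-15 and 5322 with IL-2, with 1 of 53 members past 2-fold, Cdc25b (84.1 and 35.5 CPM, 1.22). Per cell, that list had a median of 4 UMIs per 2000 with IL-15 and 8 with IL-2, while the upper quartile was 15 in both. Replication genes had a median of −0.23, with 0 of 49 past 2-fold but 41 of the 49 below 0. They summed to 3510 CPM with IL-15 and 4242 with IL-2, and their medians per cell were 5 and 8 UMIs per 2000. Of 14 cell cycle regulators that passed the filter, 2 were at least 2-fold lower and 0 higher, with a median of −0.36. Cdk6, a G1 kinase, stood at 95.8 CPM with IL-15 and 336 with IL-2 (−1.80), and at 37.1 CPM without cytokine. The lowest value was that of the inhibitor Cdkn1a, at 16.4 CPM with IL-15 and 148 with IL-2 (−3.10).

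More genes were past 2-fold in cells without a cycling UMI than in cycling cells. This split used all UMIs of a cell, without thinning, so shallow cells fall more readily into the group without one. It counted 2560 of 4399 IL-15 cells and 2563 of 3471 IL-2 cells as cycling. The other cells were fewer in both cultures, so their sums hold more counting error. How far this raises the number of genes was not tested. In the sum of cycling cells alone, 117 genes stood above the 2-fold line and 199 below it, and 108 and 189 of them did so in all cells as well. In the sum of the other cells the counts were 206 above and 328 below, with 128 and 201 shared with all cells. Tnfrsf4 differed by −3.15 among cycling cells and −3.54 among the rest, Bnip3 by −2.75 and −3.61, Cish by −2.91 and −3.14, Tcf7 by 1.72 and 2.29, and Klrd1 by 2.37 and 2.88. Each of these 5 genes had the same direction in both groups of cells and the larger difference in cells without a cycling UMI. Other genes named above had the larger difference in cycling cells. Hspa1a was among them (−6.21 and −5.26, cycling cells first). It had 0 CPM with IL-15 in both groups, so its values rest on the IL-2 levels alone, 73.1 and 37.4 CPM. Iigp1 (2.63 and 2.11) and Ctla4 (−1.46 and −1.27) were among them as well. The 5 genes therefore do not stand for all genes.

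Within each culture the lists varied from cell to cell, and the overlap between the cultures differed by list. Glycolysis transcripts had a median of 27 UMIs per 2000 with IL-15 (quartiles 21 and 34) and 45 with IL-2 (36 and 55), and 4.96% of the IL-15 cells and 52.9% of the IL-2 cells reached the IL-2 median. Without cytokine the median was also 27. The ATF4 list had medians of 3 and 6, and the STAT5 list of 5 and 8 with 3 without cytokine. Naive and memory genes had medians of 9 and 6, and interferon genes of 4 and 2. The IL-2 median for interferon genes was reached by 82.7% of IL-15 cells, by 81.7% of cells without cytokine and, since many cells tie at it, by 57.5% of the IL-2 cells themselves.

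**Figure D4:**
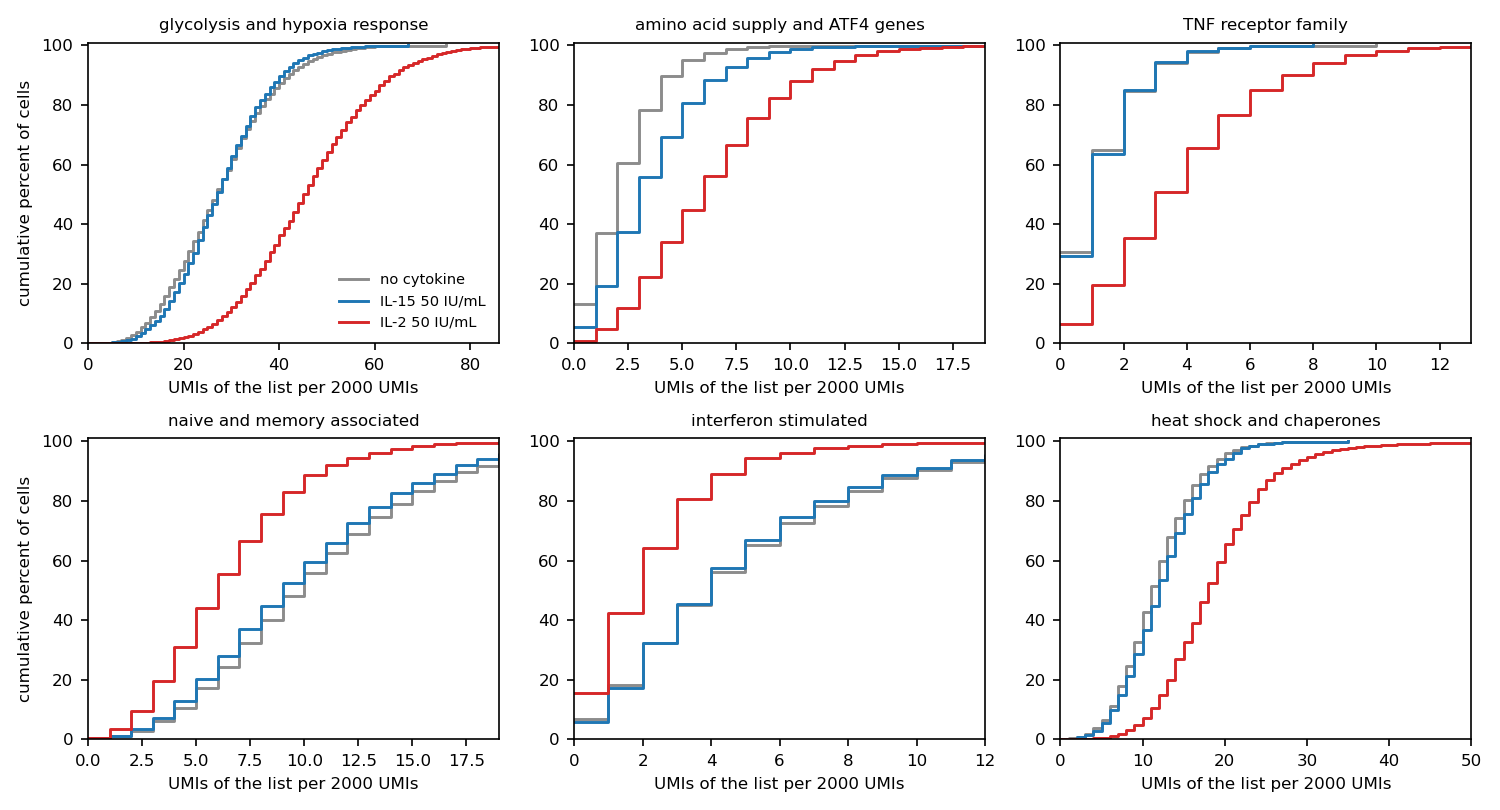
Cumulative percent of cells (y axis) by the number of UMIs of a list per 2000 UMIs (x axis), for IL-15 and IL-2 at 50 IU/mL and for no cytokine on day 3. For glycolysis the whole IL-2 curve lies to the right of the IL-15 curve (medians 45 and 27), the IL-15 curve follows that without cytokine, and for the ATF4 list it lies between the other curves.

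Energy and lipid pathways otherwise differed little. None of the 76 nuclear genes of oxidative phosphorylation passed 2-fold (median −0.03), nor did the 13 of the mitochondrial genome (median 0.36), the 15 of fatty acid oxidation (−0.01) or the 32 of sterol and fatty acid synthesis (0.26). The mitochondrial genes summed to 44761 CPM with IL-15 and 33702 with IL-2, the same gap that the mitochondrial share of UMIs shows. Ribosome biogenesis had 1 of 31 members past 2-fold (Odc1, 86.2 and 213 CPM, −1.30), and apoptosis and survival had 0 of 14. Other cytokine receptors had 2 of 13 lower, Il7r and Il12rb1, the latter at 14.9 and 33.1 CPM (−1.10).

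The same pair of cytokines was then set side by side at the other dose and on later days, in libraries that share none with this pair. At 5 IU/mL on day 3, 0 of 5750 genes were at least 2-fold higher with IL-15 and 26 (0.452%) at least 2-fold lower. The genes past 2-fold at 50 IU/mL are followed here whether or not they passed the filter in the other pair. Of the 220 lower genes, 191 had the same sign at 5 IU/mL and 29 were past 2-fold, with a median of −0.36. Among the 220, 82 stood below the filter in both 5 IU/mL libraries, and 63 of the 82 had the same sign. Several of the lowest genes at 50 IU/mL were among them and differed far less at 5 IU/mL, Emilin2 by −0.64, Fosl2 by −0.57 and Cish by −0.25. Of the 136 higher genes, 125 had the same sign and 0 were past 2-fold, with a median of 0.25. Of the 6072 genes tested at 50 IU/mL, 51.7% had the sign of the lower and 48.2% that of the higher genes at 5 IU/mL. At the low dose, the glycolysis list had a median of −0.83, with Slc16a3 at −2.08 and Bnip3 at −1.96, whereas the ATF4 list stood at 0.05. On day 5 at 50 IU/mL, 256 genes (4.31%) were higher and 476 (8.01%) lower. The day 5 IL-2 library was the smallest of the series, with 3251 cells and 10590998 UMIs, beside 5809 cells and 23288848 UMIs with IL-15. The effect of this on the counts of genes was not tested. Of the day 3 genes, 217 of 220 lower and 130 of 136 higher genes had the same sign, and 172 and 63 were past 2-fold, beside 55.1% and 44.9% of the 6072 genes with those signs. On day 10, 548 genes (9.86%) were higher and 644 (11.6%) lower. There 160 of 220 lower and 109 of 136 higher genes had the day 3 sign, beside 45.6% and 54.4% of the 6072 genes with those signs. Past 2-fold in the day 3 direction were 96 of the lower and 79 of the higher genes, and past 2-fold the opposite way 13 and 9. Of the lower genes, 52 stood below the filter on day 10, and 28 of these had the day 3 sign.

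The lists took different courses over the days. The naive and memory list had medians of 0.95, 0.65 and 3.23 on days 3, 5 and 10, with Tcf7 at 1.95, 1.55 and 5.42 and S1pr1 at 1.90, 2.03 and 6.66. The glycolysis list had medians of −1.33, −2.04 and −0.47, and the interferon list of 0.98, 0.44 and −0.82. Cish differed by −2.96, −1.61 and −0.47, and Tnfrsf9 by −2.10, −4.56 and −7.03. Gzmb differed by −1.06, −1.87 and −6.34. Members that passed the filter differ between the days, and each day has 1 library per cytokine, so these values describe the libraries.

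**Figure D5:**
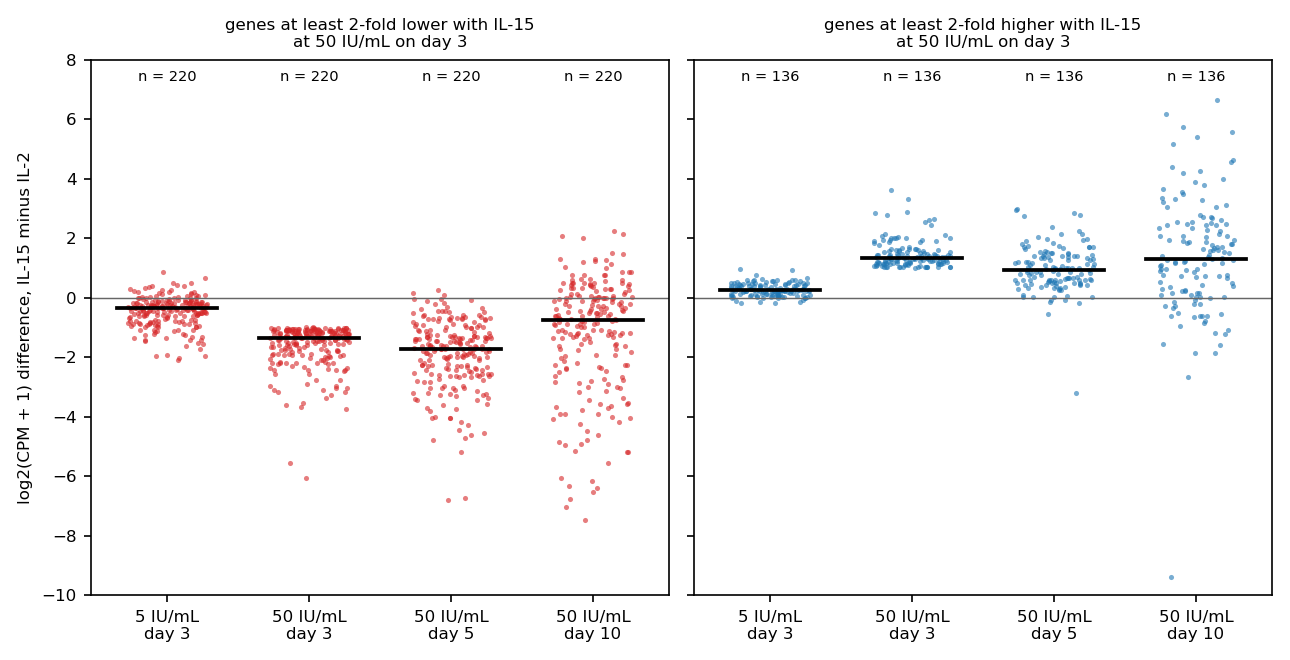
Difference in log2(CPM + 1), IL-15 minus IL-2 (y axis), of the genes at least 2-fold lower (left) and higher (right) at 50 IU/mL on day 3, in 4 pairs of libraries (x axis); each point is a gene, shown whether or not it passed the filter in that pair, and black bars are medians. The second column of each panel is the pair that chose the genes; at 5 IU/mL the medians are −0.36 and 0.25, on day 5 they are −1.71 and 0.95, and on day 10 −0.74 and 1.31 with a wider spread.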

How the data were processed

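Single-cell RNA tables of 21 libraries were read, 1 per condition. The values are raw counts of UMIs per gene symbol and barcode, deposited by the authors with 17516 genes in each table and 1002 to 13407 UMIs per barcode. Cell Ranger, Seurat 4.0.1, Seurat 3.0.2 and build mm10 are named in the submitters' processing notes, without their role. Kit, strandedness and doublet removal are not given in the sources used here, and no doublet caller was run. Library totals ran from 10590998 to 32648496 UMIs.

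Counts of all barcodes were summed per library and scaled to CPM. Differences are of log2(CPM + 1), for genes with at least 20 CPM in either library, and a gene was called at a difference of 1 or more in size. Intervals are exact Poisson for CPM and exact Clopper-Pearson for shares, at 95%. They cover counting error only. Shares used cells thinned to 2000 UMIs, which left out 169 cells with IL-15 and 124 with IL-2. Named genes were the 12 highest and 12 lowest differences and members of 34 lists (28 programmes, 6 marker lists); other genes were named after their values were seen, and some members are not reported here. The comparison, members and lists were chosen with earlier results of these data known. Genes with at least 30% of the 50-base words of their last 400 bases in another gene were called uncertain, using GENCODE vM21 (GRCm38, the assembly of mm10). Promoter windows came from RefSeq (GRCm38.p6). The computation was tested on simulated counts with Poisson error only. Recovery was required only for changes larger than 2-fold in genes well above the 20 CPM filter. The test therefore does not cover calls near either limit. Alternatives were other filters on cells and genes, other totals, edgeR 4.0.16 TMM factors, DESeq2 1.42.0 size factors, another pseudocount, thinned cells, and cycling or other cells alone. One alternative, leaving out cells with heat shock RNA, was chosen after seeing the data. Python 3.11.15, numpy 2.4.6, scipy 1.17.1, pandas 2.3.3 and R 4.3.3 were used.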

Additional observations from a re-analysis of the deposited data

Results flagged for a closer look

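Some named genes that differed at least 2-fold on day 3 at 50 IU/mL differed at least 2-fold the other way on a later day at the same dose. The change between days was not tested, since each day has 1 library per cytokine. Gzma (granzyme A) differed by 1.48 on day 3, −3.20 on day 5 and −9.39 on day 10 (log2, IL-15 minus IL-2), with 35.1 and 11.9 CPM on day 3 and 7.00 and 5352 CPM on day 10, IL-15 first. Il7r differed by −1.17 on day 3 and 2.02 on day 10, where it stood at 96.6 CPM with IL-15 and 23.1 with IL-2. The interferon-induced Iigp1 went from 2.56 to −1.07 on day 10, and Zbp1 from 1.17 to −1.19. S100a4 went from 2.0 to −1.87, a value that is uncertain because its 3′ end is shared with another gene, and S100a6 from 1.05 to −1.56. Pfkl, a phosphofructokinase of glycolysis, went from −1.64 to 1.20 on day 10.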

How the results depend on the processing

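Under 15 alternatives, 358 of 360 values of the 24 genes with the highest and lowest differences stayed past 2-fold in the same direction. These genes were chosen as the extremes of the same counts, so this is no independent check. Changing the filter on low genes could not move these values. Nor could the filter of at least 1000 UMIs, 500 genes and at most 10% mitochondrial UMIs, which left out 0 cells. Values of these genes under such alternatives were bound to stay the same and are counted here. By the rule used, 286 of the 360 values stayed the same, 74 moved outside the counting interval of the gene's ratio and 0 reversed. Only these genes could be labelled reversed by that rule. The counts of 136 higher and 220 lower genes became 87 and 140 with a pseudocount of 10 CPM, 363 and 452 without a filter on low genes, and 84 and 133 at 50 CPM. The higher count was 212 with totals that leave out ribosomal and mitochondrial genes, and 206 in cells lacking a UMI of Mki67 and of Top2a. The median of replication genes was −0.35 with the mean of single-cell CPM, −0.35 in thinned cells, −0.70 in cells without a cycling UMI and −0.07 in those with one; that of G2 and mitosis was −0.09 with the single-cell mean, −0.52 without and 0.24 with a cycling UMI, a split made on Mki67 and Top2a, themselves genes of that programme. Ribosome biogenesis stood at −0.32 without a cycling UMI, and killer lectin-like receptors at 0.38 without a filter. Medians changed sign in 12 of 420 values, all in 4 lists: G2 and mitosis, nuclear oxidative phosphorylation, fatty acid oxidation and inhibitory receptors. The cycling shares with IL-15 and IL-2 were 37.7% and 48.4% at 1000 UMIs, 58.2% and 73.8% without thinning, and 63.6% and 77.7% with at least 3 UMIs of the G2 and mitosis list; without cells above 2 times the median UMIs the IL-15 share was 46.7%. The cause of these shifts was not tested beyond the construction of each alternative. No paired analysis was possible because each condition has 1 library. With 1 library per condition, culture, capture and cytokine cannot be told apart, and the labels of both libraries conflict with their titles.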

Other observations

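Some abundant surface and immune genes outside the lists were also higher with IL-15, named here after their values were seen. Ms4a4b, a membrane protein of T cells, stood at 1162 CPM with IL-15 (1148 to 1177) and 287 with IL-2 (278 to 295), a difference of 2.02, and a Ms4a4b UMI was seen in 86.1% and 38% of thinned cells. Cd52 stood at 2440 and 989 CPM (1.30), Plac8 at 876 and 338 CPM (1.37) and Ly6a (Sca-1) at 773 and 331 CPM (1.22). Of the 12 CD8 T cell markers, 1 was past 2-fold, the coreceptor chain Cd8b1 at 717 and 293 CPM (1.29). The other 11 ran from Thy1 at 581 and 585 CPM (−0.01) to Trbc2 at 2234 and 1177 CPM (0.92), and the median of the list was 0.60.

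Cells with at least 2 different B, myeloid or erythroid markers other than Ighm, or with Cd4 and neither CD8 chain, made up 350 of the IL-15 cells (7.96%) and 133 of the IL-2 cells (3.83%). Cst3, which gave most of the myeloid sum, was among the markers counted. Leaving them out gave 139 genes past 2-fold above and 230 below the IL-2 level, of which 133 and 218 were among those of the whole libraries.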
